A study of Mus musculus with 28 samples.

Results

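The genes described here are the claudins, the desmosomal cadherins (desmogleins and desmocollins), the plakophilins and the connexins. They were taken by symbol: Cldn, Dsg, Dsc or Pkp with a number, or Gja to Gje with a number. This gave 57 genes, namely 24 claudins, 6 desmogleins, 3 desmocollins, 4 plakophilins and 20 connexins. The bulge table listed 57 of them among 56691 genes and the table of hair germ SMART-seq listed all of them among 57010. The hair germ SHERRY2 table listed 56 among 47243, all except Cldn22.

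The study compared skin stem cells of Alkbh5 conditional knockout (cKO) mice with those of wild-type (WT) mice at postnatal day 69. The Alkbh5 protein is a demethylase that takes m6A marks off RNA. Cells were isolated by flow cytometry, and 12 RNA-seq libraries fell into 3 datasets with 2 cKO and 2 WT mice each. SHERRY2, which tags the RNA/cDNA hybrid, was used for bulge cells and for one set of hair germ cells. SMART-seq, which amplifies cDNA, was used for the other hair germ set. The labels name neither the Cre driver nor the deleted part of Alkbh5, the sort markers or the litters, and m6A libraries were not analysed here. Within a dataset each library is a different mouse per the labels, so p-values measure the spread between mice of a genotype. The same mouse numbers recur in all 3 datasets. By the sex-linked reads given below, cKO mouse 1, cKO mouse 2 and WT mouse 2 each differed in sex between datasets. Those numbers therefore do not mark the same mouse in all 3. Whether any mice are shared between datasets is otherwise not given. In these bulk samples, fewer cells of a type and less RNA per cell cannot be told apart.

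Claudins are membrane proteins of tight junctions. They pair between neighbouring cells and, depending on the claudin, seal the gap between the cells or form a pore for ions. Desmogleins and desmocollins are the adhesive cadherins of desmosomes, and plakophilins help to couple them to desmoplakin and the keratin filaments. Connexins assemble into channels that join neighbouring cells into gap junctions and pass ions and small molecules. In skin these families change with the layer: basal keratinocytes, where follicle stem cells belong, are known for Dsg3 and Dsc3, and the suprabasal layers for Dsg1 and Dsc1.

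Alkbh5 itself, the check of the labels, had 4.45 and 2.52 CPM (counts scaled to library depth) in the bulge of cKO mice, against 98.9 and 92.1 CPM in the bulge of WT mice. In hair germ SHERRY2 it had 17.7 and 6.90 CPM in cKO mice, against 62.8 and 61.4 CPM in WT mice. In hair germ SMART-seq it had 84.8 and 105 CPM in the libraries labelled cKO, against 132 and 95.3 CPM in the WT libraries. The groups overlapped there, so directions in that dataset are given by label only. Depth was 14676168 to 21187283 reads in genes for the bulge and 9001396 to 14416601 for hair germ SMART-seq. Hair germ SHERRY2 had 1526070 and 2317407 reads in cKO mice, against 1513001 and 488648 reads in WT mice. Reads of Xist and of Y-linked genes marked 4 libraries as male: bulge WT mouse 2, hair germ SHERRY2 cKO mouse 1, and mouse 2 of both SMART-seq groups. The other libraries were female, so sex and genotype were mixed unevenly in both SHERRY2 datasets.

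Some libraries stood apart in their cell type markers. Over both genotypes, the bulge libraries held 145 to 388 CPM of Cd34 and 5011 to 7967 CPM of Krt15, both markers of the bulge. Lhx2 and Lgr5 are counted here as markers of both the hair germ and the bulge. In hair germ SHERRY2, Lhx2 had 518 and 24.2 CPM in cKO mice, against 36.4 and 67.5 CPM in WT mice. Lgr5 had 89.1 and 10.8 CPM in cKO mice, against 16.5 and 24.6 CPM in WT mice. Both genes were far higher in cKO mouse 1 than in the other libraries. The whole bulge stem cell list, which holds both, had its lowest sum in that library. It summed to 14525.5 and 23717.9 CPM in cKO mice, against 22046.9 and 22251.2 CPM in WT mice. In SMART-seq, Lhx2 had 260 and 284 CPM in the libraries labelled cKO, against 342 and 292 CPM in the WT libraries. The suprabasal list, counted without Dsg1a and Dsc1, summed in hair germ SHERRY2 to 4234 and 6066 CPM in cKO mice, against 16346 and 2857 CPM in WT mice. WT mouse 1 thus carried the most suprabasal RNA.

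The connexin genes Gjb2 and Gjb6 lie beside each other on chromosome 14. In the positions of the bulge table, which names no genome build, Gjb2 is at chr14:57336057-57342159 and Gjb6 at chr14:57360760-57371068, both on the minus strand. Cldn4 is at chr5:134973973-134975788 on the minus strand and Gja1 at chr10:56253426-56278609 on the plus strand. The 250 bases before the start of these 4 genes are shown because Gjb2 and Gjb6 had lower values together in the bulge of cKO mice, the groups of Cldn4 did not overlap in the bulge and, the other way, in the SMART-seq hair germ, and Gja1 had the highest mean level of the connexins in both. They are from RefSeq on GRCm38.p6, written 5′ to 3′ on the gene's strand. The Cldn4 promoter is chr5:134946935-134947184 on the minus strand, that of Gja1 is chr10:56377050-56377299 on the plus strand, that of Gjb2 is chr14:57104703-57104952 and that of Gjb6 is chr14:57133612-57133861, both on the minus strand. Capitals mark an AP-1 motif (TGANTCA) or a GC box (GGGCGG, or its complement CCGCCC), searched on both strands.
Cldn4: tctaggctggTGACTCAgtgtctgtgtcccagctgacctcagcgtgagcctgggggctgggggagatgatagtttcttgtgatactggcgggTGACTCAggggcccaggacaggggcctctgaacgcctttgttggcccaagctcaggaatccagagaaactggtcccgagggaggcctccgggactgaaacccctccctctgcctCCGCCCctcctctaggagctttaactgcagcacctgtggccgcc
Gja1: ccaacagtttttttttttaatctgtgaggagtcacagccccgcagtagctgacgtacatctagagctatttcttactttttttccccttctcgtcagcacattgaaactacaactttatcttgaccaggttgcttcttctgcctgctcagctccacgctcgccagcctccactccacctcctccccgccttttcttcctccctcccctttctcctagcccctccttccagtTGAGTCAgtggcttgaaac
Gjb2: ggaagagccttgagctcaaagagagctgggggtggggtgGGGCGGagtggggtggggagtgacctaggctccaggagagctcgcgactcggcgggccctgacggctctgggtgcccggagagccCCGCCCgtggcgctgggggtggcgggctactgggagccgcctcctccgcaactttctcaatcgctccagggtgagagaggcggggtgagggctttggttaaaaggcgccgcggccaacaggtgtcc
Gjb6: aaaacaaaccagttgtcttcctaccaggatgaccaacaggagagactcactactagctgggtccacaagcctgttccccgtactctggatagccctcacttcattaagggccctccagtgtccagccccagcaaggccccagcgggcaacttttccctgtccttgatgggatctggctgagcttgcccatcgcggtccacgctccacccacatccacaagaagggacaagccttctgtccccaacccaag
Cldn4 had 2 AP-1 motifs and 1 GC box, Gja1 had 1 AP-1 motif, Gjb2 had 2 GC boxes and Gjb6 had neither. Promoters were matched for 32 of the 47 junction genes looked up, as 45 promoters. The AP-1 motif was in 3 of the 45 (6.67%), against 6.75% of 32851 RefSeq promoter windows of the same length. The GC box was in 18 of the 45 (40%), against 32.7% of all. The letters describe these windows and do not show that a factor binds there.

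In bulge stem cells, none of the junction genes passed the test of cKO against WT. edgeR's quasi-likelihood test called 0 of the 27 tested junction genes at an adjusted p under 0.05 (Benjamini-Hochberg over all genes), against 3.04% of 15672 genes. At an unadjusted p under 0.05 there were 8, with 3 higher in cKO (Dsg1b, Dsg3, Dsc2) and 5 lower (Cldn8, Cldn1, Gjb6, Gjb2, Cldn4). Of all genes 18.9% had such a p, 8.74% with cKO higher and 10.2% with cKO lower. The smallest adjusted p was 0.0519, for Cldn8. The other junction genes did not pass the filter on low counts, and 13 of the 57 had no read in any bulge library. At this depth a count of 0 allows up to 3 reads, or 0.142 to 0.204 CPM, counting error only.

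Levels in the bulge are given as the FPKM of the deposited table. TMM scaling, used in the test, moved the fold change of every gene by 0.17 on the log2 scale towards lower values in cKO, so fold changes lie below the FPKM ratios. By FPKM, 10 tested junction genes did not overlap between the groups with cKO higher, where 38.6% of all genes did so, and 7 with cKO lower, where 15.4% did. On the TMM scale these were 5 higher (background 24.7%) and 7 lower (background 26.3%). The log2 fold change was positive for 13 of the 27 and negative for 14, where 48.9% of all tested genes were positive, and the median was -0.21, against -0.01 over all tested genes. The plot of bulge levels shows 18 genes that the rule for named genes selected: the 3 most abundant of each family, the 5 of largest fold change, and those whose groups differed in opposite directions in 2 datasets.

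**Figure D1:**
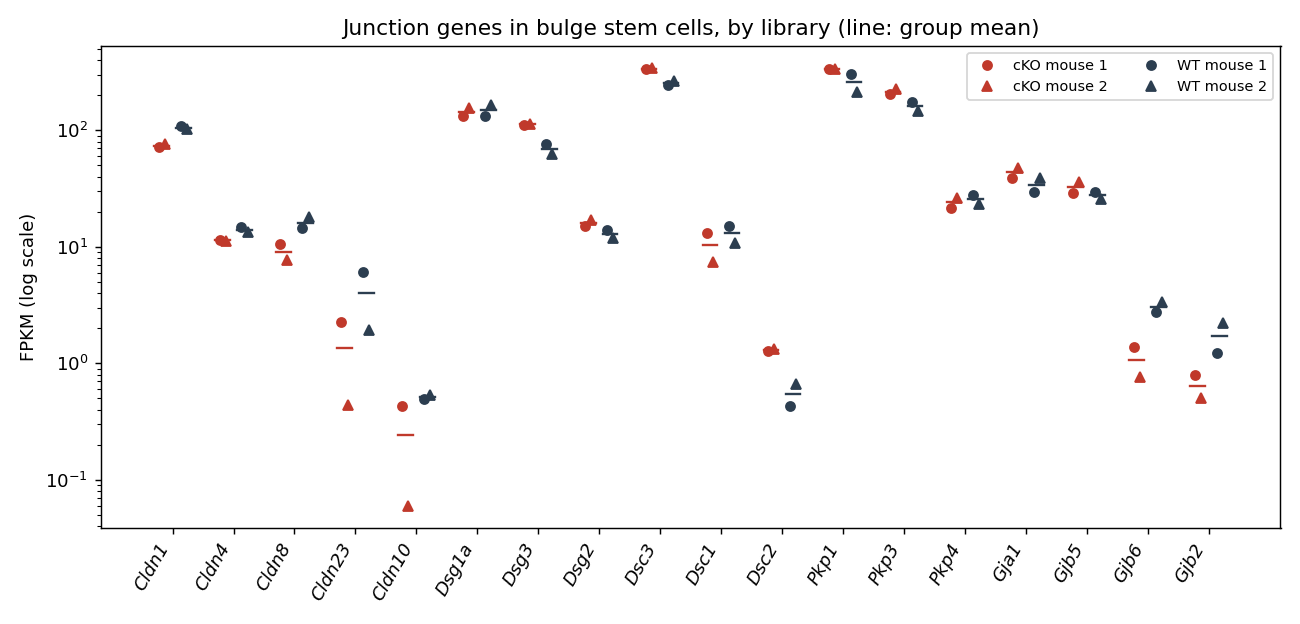
FPKM (log scale) of 18 junction genes in each bulge library, with cKO mice in red left of WT mice in dark blue and a line at each group mean. Cldn1, Cldn4, Cldn8, Cldn10, Gjb2 and Gjb6 lie lower in both cKO libraries. Dsg2, Dsg3, Dsc2, Dsc3, Pkp1, Pkp3 and Gja1 lie higher in both, although Dsg2, Pkp1 and Gja1 overlapped on the TMM scale. No difference passed the test.

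Claudins gave the most one-sided set of values. Of the 7 tested, 6 had a negative log2 fold change and 1 a positive one, with a median of -0.79. Cldn1, the main sealing claudin of the epidermis, had 72.0 and 75.7 FPKM in cKO mice, against 109 and 102 FPKM in WT mice (73.8 ± 2.60 in cKO and 105 ± 5.09 in WT, SD, n = 2 each). Both cKO values lay below both WT values, with a log2 fold change of -0.69 ± 0.16 (SE) and an adjusted p of 0.0687 in edgeR. Cldn1 made up 67.4 and 72.0% of the summed claudin level in cKO mice, against 71.3 and 70.5% in WT mice. This share overlapped between the groups, while the family's sum did not, at 107 and 105 FPKM in cKO mice, against 153 and 145 FPKM in WT mice.

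Cldn8, a claudin known as a barrier to cations in the kidney, had 10.5 and 7.65 FPKM in cKO mice, against 14.4 and 17.9 FPKM in WT mice. Its log2 fold change was -0.999 ± 0.212 (SE) with an adjusted p of 0.0519 in edgeR. Cldn4, a claudin that seals and is known from the upper layers of the epidermis, had 11.47 and 11.2 FPKM in cKO mice, against 14.7 and 13.3 FPKM in WT mice. The groups of both genes did not overlap, and the fold change of Cldn4 was smaller, -0.48 ± 0.18 (SE) on the log2 scale with an adjusted p of 0.211 in edgeR. In the order of levels Cldn1 stood apart from all others, and Cldn4 and Cldn8 were not separated from each other, with libraries from 11.2 to 14.7 FPKM and from 7.65 to 17.9 FPKM. Cldn12, next in order and named after its values were seen, had 7.98 and 8.08 FPKM in cKO mice, against 6.84 and 7.24 FPKM in WT mice, so that only its cKO values lay within the range of Cldn8.

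Cldn23 and Cldn10 had a wide spread between mice of a group. Cldn23 had 2.27 and 0.44 FPKM in cKO mice, against 6.05 and 1.95 FPKM in WT mice, with overlapping groups and an adjusted p of 0.278 in edgeR. Its log2 fold change was -1.78 ± 0.79 (SE). Mouse 1 was the higher of each group, and without cKO mouse 1 Cldn23 was called lower in cKO, at -3.35 on the log2 scale. It was not called without cKO mouse 2, at -1.02, or without WT mouse 1, at -0.70. Cldn10, a claudin that forms ion-selective pores, had 17 and 3 reads in cKO mice, against 27 and 20 reads in WT mice. That gave 0.43 and 0.06 FPKM in cKO mice, against 0.49 and 0.53 FPKM in WT mice, and a log2 fold change of -1.26 ± 0.92 (SE) with an adjusted p of 0.519 in edgeR. The fold change was -0.42 without cKO mouse 2, the library with 3 reads, and -3.20 without cKO mouse 1. An annotated 5S_rRNA gene overlaps Cldn10 on the other strand, and whether strand was used in counting is not given. Of the remaining claudins, Cldn20 in cKO mouse 1 and Cldn3 in WT mouse 2 were the only ones above 1 FPKM in a library, and 9 of the 24 had no read there.

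Cell type markers moved beside these values. Of the 13 genes of the suprabasal and upper follicle list, 12 had a negative log2 fold change in the bulge, with a median of -0.76, and 1 was called, Krtdap, lower in cKO. The summed level of that list without Dsg1a and Dsc1 nevertheless overlapped, at 6931 and 6188 CPM in cKO mice, against 6359 and 7602 CPM in WT mice. Of the immune list, all 9 tested genes had a negative log2 fold change, with a median of -1.77. Cd74, H2-Aa, H2-Ab1 and Cd3g were called lower in cKO, and the list's sum was 95.3 and 53.9 CPM in cKO mice, against 251 and 205 CPM in WT mice. The hair germ list had 7 of 8 negative log2 fold changes, with a median of -0.44 and 0 called. It summed to 915 and 566 CPM in cKO mice, against 1081 and 972 CPM in WT mice. Lhx2, Sox9 and Lgr5 of that list are also on the bulge stem cell list, so its values are not those of the hair germ alone. Of the sebaceous list all 6 tested genes had a positive log2 fold change, with a median of 0.63, and 1 was called, Elovl3, higher in cKO. That list summed to 60.6 and 68.1 CPM in cKO mice, against 34.5 and 49.5 CPM in WT mice. The bulge stem cell list had 4 positive and 8 negative log2 fold changes, with a median of -0.12 and 0 called. Its sum was 28198 and 32183 CPM in cKO mice, against 34285 and 32725 CPM in WT mice. No gene of these lists was at 0 in all bulge libraries. The part of these cells in the claudin values was not tested.

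The desmosomal cadherins, whose 6 desmoglein and 3 desmocollin genes form a cluster on chromosome 18, varied in direction gene by gene. Of the 5 desmogleins tested, 3 had a positive log2 fold change, with a median of 0.13. Dsg3, the desmoglein of basal keratinocytes, known in mice for anchoring the telogen hair, had 112 and 114 FPKM in cKO mice, against 76.0 and 62.1 FPKM in WT mice. The cKO values were nearly equal and above both WT values, with a log2 fold change of 0.53 ± 0.19 (SE) and an adjusted p of 0.177 in edgeR. Dsg1a, a desmoglein of differentiating keratinocytes, overlapped between groups, with 133 and 156 FPKM in cKO mice, against 133 and 164 FPKM in WT mice (log2 fold change -0.21 ± 0.19, SE, adjusted p of 0.626 in edgeR). Dsg3 thus made up 40.7 and 37.9% of the summed desmoglein level in cKO mice, against 32.9 and 25.3% in WT mice, and Dsg1a 48.7 and 52.1% in cKO mice, against 57.7 and 66.8% in WT mice. Neither share overlapped between the groups, and no test was made of shares.

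Dsg2, a desmoglein known from simple epithelia and the hair follicle, had 15.1 and 16.9 FPKM in cKO mice, against 13.99 and 11.96 FPKM in WT mice. Its log2 fold change was 0.13 ± 0.16 (SE) with an adjusted p of 0.734 in edgeR, and its groups overlapped on the TMM scale. Dsg1b, named after its values were seen, had 13.7 and 12.8 FPKM in cKO mice, against 7.44 and 7.27 FPKM in WT mice. Replicates of Dsg1b were close, and the log2 fold change of 0.68 ± 0.16 (SE) had an adjusted p of 0.0681 in edgeR. Dsg1a, Dsg1b and Dsg1c are near-identical copies, so the split of reads among them is uncertain. In the order of levels Dsg1a lay above Dsg3 in every bulge library, while Dsg2 and Dsg1b overlapped. Dsg4, the desmoglein of the hair shaft, reached at most 0.09 FPKM.

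Among desmocollins, Dsc3 made up 95.9 and 97.5% of the summed level in cKO mice, against 94.0 and 95.9% in WT mice. Dsc3, the basal desmocollin, had 335 and 344 FPKM in cKO mice, against 244 and 267 FPKM in WT mice. The groups did not overlap, but the log2 fold change after TMM scaling was 0.24 ± 0.19 (SE) with an adjusted p of 0.555 in edgeR. Dsc2, a widely expressed desmocollin, had 1.27 and 1.33 FPKM in cKO mice, against 0.43 and 0.67 FPKM in WT mice. These rested on 102 and 139 reads in cKO mice, against 48 and 52 reads in WT mice, with a log2 fold change of 1.08 ± 0.39 (SE) and an adjusted p of 0.184 in edgeR. Dsc1, the desmocollin of the suprabasal layers, had 13.1 and 7.45 FPKM in cKO mice, against 15.2 and 10.9 FPKM in WT mice. Its groups overlapped (log2 fold change -0.52 ± 0.29, SE, adjusted p of 0.387 in edgeR), with mouse 1 higher than mouse 2 in each group, and it was called lower without cKO mouse 1, at -0.96. Leaving out cKO mouse 2 instead gave -0.18 and leaving out WT mouse 1 gave -0.23, neither of them called.

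**Figure D2:**
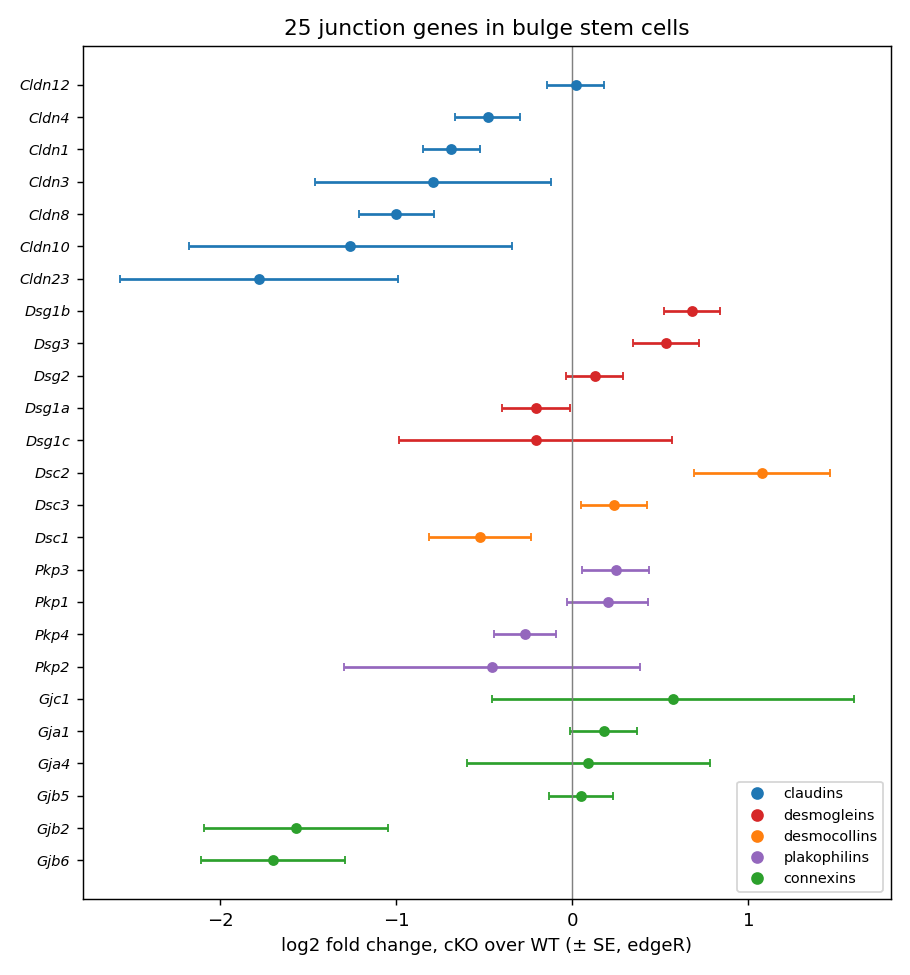
log2 fold change of cKO over WT in the bulge for 25 of the 27 tested junction genes, with bars for the standard error of edgeR and colours for the family. Claudins lie mostly left of 0, the basal cadherins Dsg3 and Dsc3 right of 0, and the widest bars belong to genes with few reads.

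No plakophilin had an unadjusted p under 0.05 in edgeR. Pkp1, which strengthens desmosomes in stratified epithelia, had 333 and 337 FPKM in cKO mice, against 302 and 213 FPKM in WT mice. WT mouse 2 was the low library, and the log2 fold change was 0.20 ± 0.23 (SE) with an adjusted p of 0.705 in edgeR. The gene Gm36938 overlaps Pkp1 on the same strand. Pkp3, an epithelial plakophilin, had 203 and 226 FPKM in cKO mice, against 175 and 146 FPKM in WT mice, a log2 fold change of 0.25 ± 0.19 (SE) with an adjusted p of 0.547 in edgeR. Pkp4, a relative that also binds at adherens junctions, had 21.6 and 26.4 FPKM in cKO mice, against 28.0 and 23.2 FPKM in WT mice, and its groups overlapped (log2 fold change -0.27 ± 0.18, SE, adjusted p of 0.476 in edgeR). Pkp2 was at or below 0.16 FPKM.

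Gja1 and Gjb5 were abundant connexins of the bulge. Gja1, the most widespread connexin, had 39.3 and 47.6 FPKM in cKO mice, against 29.4 and 39.0 FPKM in WT mice. Gjb5, a connexin of keratinocytes, had 28.9 and 36.2 FPKM in cKO mice, against 29.8 and 25.9 FPKM in WT mice. On the TMM scale the groups of both genes overlapped, with log2 fold changes of 0.18 ± 0.19 for Gja1 and 0.05 ± 0.18 for Gjb5 (SE) and adjusted p-values of 0.679 and 0.918 in edgeR. The libraries of the 2 genes overlapped, so their levels were not separated. The summed connexin level was 136 and 140 FPKM in cKO mice, against 131 and 123 FPKM in WT mice, and overlapped on the TMM scale.

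Gjb6 and Gjb2, the neighbours on chromosome 14, were scarce in the bulge and lower in both cKO libraries. Gjb6 had 56 and 40 reads in cKO mice, against 155 and 133 reads in WT mice. That gave 1.37 and 0.76 FPKM in cKO mice, against 2.74 and 3.39 FPKM in WT mice. The groups were well apart, with a log2 fold change of -1.70 ± 0.41 (SE) and an adjusted p of 0.0721 in edgeR. Gjb2 had 29 and 24 reads in cKO mice, against 62 and 78 reads in WT mice, or 0.79 and 0.50 FPKM in cKO mice and 1.22 and 2.21 FPKM in WT mice. Its log2 fold change was -1.57 ± 0.52 (SE) with an adjusted p of 0.158 in edgeR. Both encode connexins that are known to assemble together in skin and in the inner ear, and together they made up less of the connexin level than Gja1 or Gjb5 did in each library. The suprabasal and immune values given beside the claudins apply here too, and their part was not tested. Of the connexins with a lower mean level than Gjb2, none exceeded 0.75 FPKM in a bulge library and 4 had no read there.

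The calls of the bulge depended on the method for a few genes. DESeq2 called 5 junction genes (8.91% of all genes), with Cldn1, Gjb6 and Cldn8 lower and Dsg3 and Dsg1b higher in cKO. Without cKO mouse 1, edgeR called 5, with Gjb6, Dsc1, Gjb2, Cldn8 and Cldn23 all lower in cKO, while 1601 genes in all were called (9.53%).

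In hair germ SHERRY2, whose values are normalized read counts, limma on log2(normalized count + 1) called 0 of the 56 listed junction genes, against 0.0077% of 38953 genes. At an unadjusted p under 0.05 there were 3 (Cldn23, Cldn10 and Dsc1), and 4.62% of all genes had such a p. Alkbh5 itself had such a p too, at a log2 fold change of -1.98, but limma did not call it. The absence of calls therefore does not show that the junction genes were unchanged. The authors' deposited table also gave 3 of the 56 an unadjusted p under 0.05, and adjusted values of 0.999668 to 0.99974. Groups did not overlap with cKO higher for 3 junction genes (16.4% of all genes) and with cKO lower for 14 (16.4% of all genes). On the TMM scale these were 2 (background 11.8%) and 16 (background 20.8%). DESeq2 on the whole reads recovered from these counts called 0 junction genes (0% of all genes) and edgeR called 1 (0.377% of all genes). Fold changes of this dataset are on the log2(normalized count + 1) scale, which understates changes of low genes.

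Cldn10 had a normalized count of 145 and 6.53 in cKO mice, against 4.89 and 4.74 in WT mice. These are 198 and 8 reads in cKO mice, against 5 and 3 reads in WT mice. The high value was that of cKO mouse 1 alone, the male library in which Lhx2 and Lgr5 were also high. The log2 fold change was 2.51 ± 0.67 (SE) with an adjusted p of 0.446 in limma. It was 0.37 without that mouse, and 4.65 and called without cKO mouse 2. Cldn10 made up 36.6 and 2.31% of the summed claudin level per kilobase in cKO mice, against 0.644 and 1.82% in WT mice. The hair germ list, which shares Lhx2, Sox9 and Lgr5 with the bulge stem cell list, had 7 of 8 positive log2 fold changes. It summed to 1271 and 525 CPM in cKO mice, against 541 and 706 CPM in WT mice. Its part in the Cldn10 value was not tested.

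Cldn23 had a normalized count of 1.47 and 0.82 in cKO mice, against 44.0 and 3.16 in WT mice. These are 2 and 1 reads in cKO mice, against 45 and 2 reads in WT mice. All but the count of WT mouse 1 lie in the range of the genes silent elsewhere, given below. The log2 fold change of Cldn23 was -2.69 ± 0.70 (SE) with an adjusted p of 0.441 in limma. Dsc1 had 18.3 and 35.1 in cKO mice, against 196 and 34.8 in WT mice, a log2 fold change of -1.67 ± 0.67 (SE) with an adjusted p of 0.970 in limma. WT mouse 1 was the high library for both, and without it the values were -0.98 and -0.44. Without WT mouse 2 both genes were called lower in cKO, at -4.41 and -2.90. edgeR on the whole reads recovered from these counts gave Dsc1 a log2 fold change of -2.31 and called it lower in cKO, at -0.77 and not called without WT mouse 1. Other junction genes, named after their values were seen, were high in the same library. Cldn4 had 45.5 and 67.8 in cKO mice, against 263 and 11.1 in WT mice, and Dsg1a had 123 and 169 in cKO mice, against 671 and 87.0 in WT mice. Cldn3 had 3.67 and 8.98 in cKO mice, against 32.3 and 4.74 in WT mice. For these 3 genes WT mouse 1 was the highest and WT mouse 2, the shallowest library, was at or below the level of cKO mouse 2. The suprabasal sum was highest in the same mouse, and its part was not tested.

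**Figure D3:**
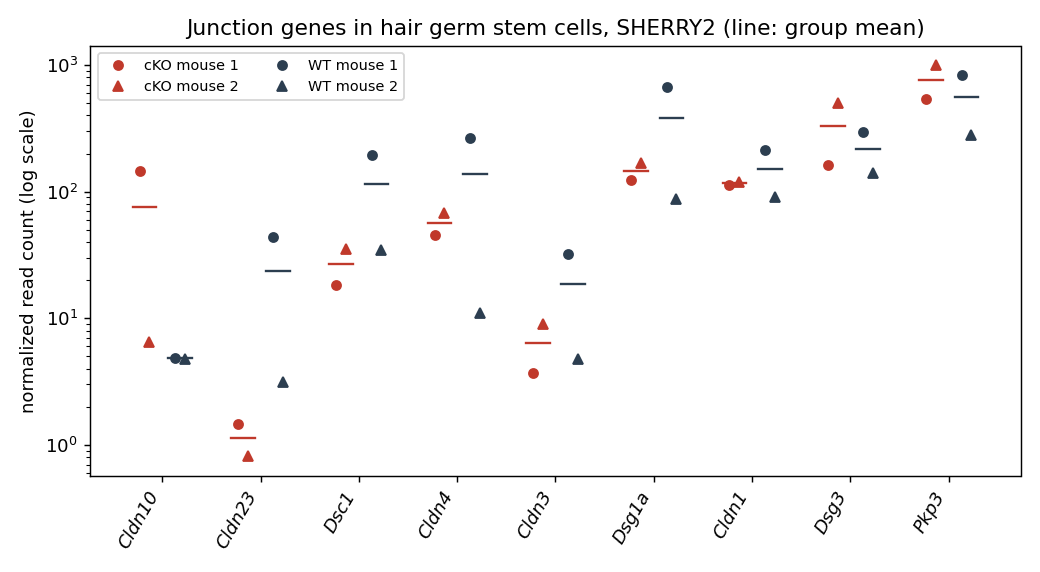
Normalized read count (log scale) of 9 junction genes in each hair germ SHERRY2 library, with cKO mice in red left of WT mice in dark blue and a line at each group mean. Cldn10 is high in cKO mouse 1 only, and Cldn23, Dsc1, Cldn4, Cldn3 and Dsg1a are highest in WT mouse 1, so group means are set by 1 library each.

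The abundant genes of this dataset were spread as widely within a genotype as between them. Pkp3 had a normalized count of 541 and 992 in cKO mice, against 830 and 281 in WT mice, and Dsg3 had 163 and 500 in cKO mice, against 297 and 139 in WT mice. Dsc3 had 578 and 519 in cKO mice, against 942 and 204 in WT mice, and Gja1 had 128 and 126 in cKO mice, against 163 and 53.8 in WT mice. All of these overlapped between the groups. Per kilobase of exon, Pkp3 and Pkp1 were the highest junction genes, followed by Dsc3, and the libraries of each neighbouring pair overlapped.

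The table of hair germ SHERRY2 also held low counts of genes silent elsewhere. In the bulge and SMART-seq libraries together, 10 junction genes had no read: Cldn2, Cldn6, Cldn9, Cldn13, Cldn16, Cldn18, Cldn22, Cldn25, Gjd2 and Gjd4. Of these, 9 were listed in hair germ SHERRY2, all 9 with reads in at least 3 of its 4 libraries. Their mean normalized count per kilobase was 1.19 to 4.89, with a median of 2.36, and their highest normalized count in a library was 12.6. Values of about that size were therefore seen for genes that the other libraries did not detect, and the junction genes with counts in that range, such as Cldn10 in the WT libraries, are not read as expressed.

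In hair germ SMART-seq, edgeR called 0 of the 31 tested junction genes between the libraries labelled cKO and the WT libraries, against 0% of 17547 genes. At an unadjusted p under 0.05 there were 2 (Gja4 and Cldn10), and 1.02% of all genes had such a p. DESeq2 also called 0 junction genes. Groups did not overlap for 2 with the libraries labelled cKO higher (background 13%) and for 3 with them lower (background 10.8%). The median log2 fold change over the 31 was -0.02, as over all tested genes. Levels are given here as RPKM, reads scaled to exon length and depth in the same way as FPKM, with exonic sizes from the bulge table.

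Cldn1, Dsc3 and Dsg3, abundant in the bulge, were abundant here too. Cldn1 had 91.5 and 67.1 RPKM in the libraries labelled cKO, against 71.7 and 86.4 RPKM in the WT libraries. Dsc3 had 280 and 268 RPKM in the libraries labelled cKO, against 245 and 358 RPKM in the WT libraries, and Dsg3 had 115 and 140 RPKM in the libraries labelled cKO, against 88.6 and 162 RPKM in the WT libraries. The groups of all 3 overlapped. Dsg3 lay above Dsg1a in every library of this dataset, with Dsg1a at 77.05 and 53.7 RPKM in the libraries labelled cKO, against 40.1 and 77.3 RPKM in the WT libraries. In the bulge the order of these 2 desmogleins was the reverse in every library, a description only, since the tables were made separately and by different library methods.

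The difference in Cldn4 ran opposite to that in the bulge. Cldn4 had 23.3 and 14.2 RPKM in the libraries labelled cKO, against 12.1 and 7.19 RPKM in the WT libraries, a log2 fold change of 0.93 ± 0.39 (SE) with an adjusted p of 1 in edgeR. Cldn10 had 2.12 and 1.24 RPKM in the libraries labelled cKO, against 2.97 and 4.14 RPKM in the WT libraries, a log2 fold change of -1.09 ± 0.43 (SE) with an adjusted p of 1 in edgeR. Neither gene overlapped between the groups. The suprabasal and upper follicle list had 10 of 12 positive log2 fold changes here, and without Dsg1a and Dsc1 it summed to 6105 and 4465 CPM in the libraries labelled cKO, against 3276 and 3942 CPM in the WT libraries. Its groups did not overlap either, and its part in the Cldn4 value was not tested. Gja4, a connexin of blood vessels named after its values were seen, had 20 and 16 reads in the libraries labelled cKO, against 4 and 0 reads in the WT libraries, with an adjusted p of 1 in edgeR. Markers of endothelial cells summed there to 3.57 and 2.22 CPM in the libraries labelled cKO, against 3.12 and 3.37 CPM in the WT libraries, and Emcn and Tie1 had no read.

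The summed connexin level had a wider range over the SMART-seq libraries than the sum of any other of the 5 families. Gja1 had 162 and 202 RPKM in the libraries labelled cKO, against 28.9 and 284 RPKM in the WT libraries. Gjb2 had 95.4 and 57.8 RPKM in the libraries labelled cKO, against 22.2 and 144 RPKM in the WT libraries. For both genes the lowest and the highest library were the WT ones. The summed connexin level was 352 and 321 RPKM in the libraries labelled cKO, against 114 and 488 RPKM in the WT libraries. Gja1 made up 46.1 and 63.1% of it in the libraries labelled cKO, against 25.3 and 58.3% in the WT libraries.

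Other junction genes were spread over the same libraries. Dsg4, named after its values were seen, had 1.97 and 5.17 RPKM in the libraries labelled cKO, against 0.259 and 8.13 RPKM in the WT libraries. Dsc2 had 2.42 and 4.19 RPKM in the libraries labelled cKO, against 1.28 and 6.29 RPKM in the WT libraries. For both genes WT mouse 1 was lowest and WT mouse 2 highest. The list of the club hair's inner layer and shaft (Krt6a, Krt75, Krt71 and others) summed to 577 and 1229 CPM in the libraries labelled cKO, against 322 and 1689 CPM in the WT libraries. Its lowest and highest libraries were the same WT mice, no gene of it was at 0, and its part in the connexin values was not tested. Dsc1 had 16.0 and 2.09 RPKM in the libraries labelled cKO, against 9.14 and 1.95 RPKM in the WT libraries, higher in mouse 1 of both groups. The suprabasal list was higher in mouse 1 among the libraries labelled cKO and higher in mouse 2 among the WT libraries. Mouse 1 was the female of each group.

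**Figure D4:**
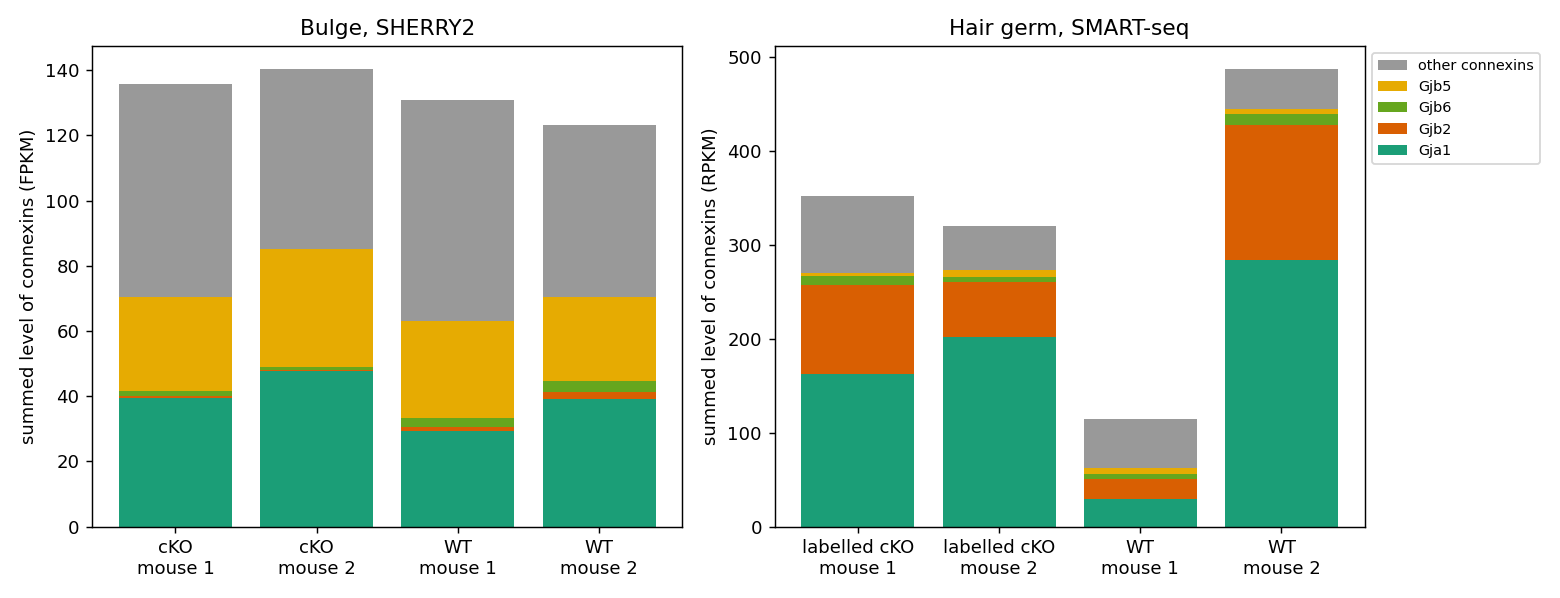
Summed level of the 20 connexins per library, split into 4 named genes and the sum of the others, in the bulge (left, FPKM) and in hair germ SMART-seq (right, RPKM), with the cKO libraries left of the WT libraries in each panel. The bulge sums lie between 123 and 140 with little Gjb2 or Gjb6, and the hair germ sums run from 114 to 488 with Gja1 and Gjb2 carrying most of the difference.

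The make-up of the connexins differed between the tables. Gjb2 made up 0.582 and 0.356% of the summed connexin level in the bulge of cKO mice, against 0.933 and 1.79% in the bulge of WT mice. In hair germ SMART-seq it made up 27.1 and 18.04% in the libraries labelled cKO, against 19.4 and 29.5% in the WT libraries. Gjb5 made up 21.3 and 25.8% in the bulge of cKO mice, against 22.8 and 20.99% in the bulge of WT mice, and 0.908 and 2.38% in the hair germ SMART-seq libraries labelled cKO, against 4.86 and 1.15% in the WT ones. In hair germ SHERRY2, Gjb2 made up 5.29 and 0.893% in cKO mice, against 1.49 and 4.85% in WT mice, and Gja1 8.68 and 4.03% in cKO mice, against 3.90 and 4.84% in WT mice. The Gja1 share of every hair germ SHERRY2 library lay below that of every SMART-seq library. The tables were made separately, so these shares were not tested.

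Genes that work beside these families were given by lists. Of 17 tested tight junction partners (Tjp1, Ocln, F11r and others), 0 were called in the bulge, with 5 positive and 12 negative log2 fold changes and a median of -0.06. Of 9 desmosome partners 0 were called, with 5 positive and 4 negative and a median of 0.20. At an unadjusted p under 0.05 in edgeR there were 2 tight junction partners and 1 desmosome partner, where 18.9% of all genes had such a p. Dsp, the plakin that ties desmosomes to keratin, had 515 and 504 FPKM in cKO mice, against 348 and 295 FPKM in WT mice, an adjusted p of 0.265 in edgeR. Perp, a membrane protein of desmosomes, had 1375 and 1301 FPKM in cKO mice, against 1713 and 1939 FPKM in WT mice, an adjusted p of 0.145 in edgeR. Neither of these 2 genes, named after their values were seen, overlapped between the groups, and they lay in opposite directions.

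Of 12 adherens junction genes 0 were called, with 5 positive and 7 negative log2 fold changes and a median of -0.02. Nectin4, an adhesion molecule of adherens junctions, had 10.9 and 8.87 FPKM in cKO mice, against 13.9 and 16.1 FPKM in WT mice, an adjusted p of 0.0621 in edgeR. Of 3 tested pannexins and connexin regulators 0 were called, with a median of -0.41. Each of these lists had 2 genes at an unadjusted p under 0.05 in edgeR, where 18.9% of all genes had such a p. Cav1, the caveolin known to bind Gja1 protein, had 142 and 122 FPKM in cKO mice, against 191 and 172 FPKM in WT mice, an adjusted p of 0.112 in edgeR. Both genes, chosen after their values were seen, were lower in each cKO library than in each WT library. In both hair germ datasets 0 genes of these 4 lists were called by limma or edgeR, and 0 had an unadjusted p under 0.05.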

How the data were processed

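Of 28 samples, the 12 RNA-seq libraries were analysed, grouped by genotype and cell type from their titles. For the bulge, the deposited table holds read counts per gene and the FPKM that the authors made from them with exonic sizes. The deposited SMART-seq table holds read counts. For hair germ SHERRY2 the deposited table holds a signal per library (counts divided by a size factor), from which whole reads were recovered for 100% of values within 0.01 reads. That table also holds the authors' log2 fold change, p-value and Wald score. The score has the opposite sign to the fold change, so directions came from the library values. The submitters' processing notes name STAR, featureCounts and DESeq2 with GRCm38 and mm10, plus HISAT2 and GRCm39 for SMART-seq, without versions.

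Counts were tested with edgeR 4.0.16 (quasi-likelihood, TMM, filterByExpr) in R 4.3.3. The normalized SHERRY2 values were tested with limma 3.58.1 with a trend on log2(value + 1), and genes with a mean under 1 were left out. Comparisons were cKO over WT without other terms, two-sided, on whole tables, with Benjamini-Hochberg adjustment at 0.05. Alternatives were DESeq2 1.42.0, RLE size factors, other filters and pseudocounts, a replicate block, and each library left out. edgeR on recovered SHERRY2 reads with a library left out was added after seeing the data. Junction genes and lists were chosen with earlier results of these data known. Values per library were given for genes called in any comparison (there were 0), the 3 most abundant of each family in the bulge, the 5 of largest bulge fold change, and those whose groups did not overlap in opposite directions between datasets. Of the junction genes, 2 enter the counts and sums but are not reported here. Promoters came from RefSeq. Exonic sizes of the bulge table served all tables. Replicates differed by more than sampling noise, with a chi-square per gene of 8.27 to 66.0, so none was counted as a duplicate.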

Additional observations from a re-analysis of the deposited data

Results flagged for a closer look

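Cldn10 had opposite differences in the bulge and in hair germ SHERRY2: both cKO libraries were below both WT libraries in the bulge, and above them in hair germ SHERRY2. The log2 fold changes were 2.51 in hair germ SHERRY2 and -1.26 in the bulge. The hair germ value rested on cKO mouse 1, and the groups overlapped there on the TMM scale. The bulge value was -0.42 without cKO mouse 2, which had 3 reads, and -3.20 without cKO mouse 1.

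Cldn10 also differed between the 2 hair germ datasets, at 2.51 in SHERRY2 and -1.09 in SMART-seq, where both libraries labelled cKO were below both WT libraries.

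Cldn4 differed in opposite directions in hair germ SMART-seq and in the bulge, with every library labelled cKO higher in hair germ and every cKO library lower in the bulge. The log2 fold changes were 0.93 in SMART-seq and -0.48 in the bulge, and the groups stayed apart on the TMM scale in both. None of these differences between datasets was tested, since the tables were made separately, and none of the fold changes passed its own test.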

How the results depend on the processing

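Counts in this section stand beside the number of all called genes and are not shares of the genes tested. They are not read as above or below a background. In the bulge, edgeR called 0 junction genes of 476 called genes. DESeq2 called 5 junction genes of 1191 called genes, and RLE size factors 1 (Cldn8) of 529. A filter of at least 1 read called 6 of 1549 (Cldn1, Gjb6, Gjb2, Cldn8 and Cldn23 lower, Dsg1b higher). Leaving out each library in turn gave 0 to 5 junction genes of 218 to 1601. The 1601 and the 5 came without cKO mouse 1, and 733 genes and 0 junction genes without cKO mouse 2. Fold changes were followed for the 18 named genes and Dsg1b, and not for the other tested junction genes. Among those followed, directions turned round in 3 genes when a library was left out. The log2 ranges were -0.017 to 0.27 for Dsg2, -0.13 to 0.23 for Gjb5 and -0.063 to 0.50 for Pkp1. The causes were not tested.

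In hair germ SHERRY2, limma called 0 junction genes of 3 called genes, 2 of 19 with a pseudocount of 5 (Cldn10 higher, Cldn23 lower), and 0 of 0 with a pseudocount of 0.1, without a filter on the mean, or by DESeq2. edgeR on recovered reads called 1 (Dsc1) of 63. Leaving out a library gave 0 to 3 junction genes of 0 to 105 in limma, with 3 without WT mouse 2 and 1 (Cldn10) without cKO mouse 2. In edgeR it gave 0 of 1 without cKO mouse 1, 1 of 16 without cKO mouse 2, 0 of 1 without WT mouse 1 and 4 of 113 without WT mouse 2 (among them Cldn10, Cldn23 and Dsc1). In SMART-seq 0 junction genes were called in any alternative, and a filter of at least 1 read called 30 genes in all.

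With the mouse number as a replicate block, 0 junction genes were called in each dataset, of 506 genes in the bulge, 5 in hair germ SHERRY2 and 0 in SMART-seq. The labels do not say that a number marks a shared litter or day. Deviations of same-numbered mice correlated at 0.00758 in the bulge, -0.211 in hair germ SHERRY2 and 0.229 in SMART-seq, so the numbers were not taken as pairs.

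The shallowest hair germ library had 488648 reads, and the sexes were uneven between the groups in the bulge and in hair germ SHERRY2. What these did to the number of calls was not tested. No GC content was checked, since no genome was used. In each leave-one-out fit the lone library is assumed to vary like the other group.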
